A study of Mus musculus with 6 samples.

Results

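The 8 transcripts described here encode kinases and a scaffold of the RAF-MEK-ERK cascade. They are Araf and Braf (RAF kinases), Ksr1 (scaffold), Map2k1 and Map2k2 (the MEK kinases MEK1 and MEK2), Mapk3 (ERK1), and Rps6ka1 and Rps6ka3 (the ribosomal S6 kinases RSK1 and RSK2, which ERK activates). They were taken by symbol from a table of 54532 mouse gene IDs, as known parts of the pathway and with earlier results of these data known. All 8 had a mean of at least 0.5 FPKM (fragments counted per kilobase of exons and adjusted for sequencing depth), as did 13794 genes of the whole table.

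RNA-seq was performed on primary cardiomyocytes from neonatal mouse hearts whose Rit1 locus can be switched by Cre recombinase to the M90I allele of RIT1, a GTPase of the RAS family. On day 3 after isolation, cultures in serum-containing medium received an adenovirus for GFP (AdGFP, labelled Rit1 +/+) or for GFP-Cre (AdCre, labelled Rit1 M90I/+), with 3 samples in each group. By the study's account, the RNA was analyzed on day 6 after the adenovirus was given. All 6 samples therefore carried an adenovirus and GFP, and the recombinase and the variant always came together. A comparison with Cre in cells lacking the inducible allele is not among the samples, so an effect of Cre cannot be told apart from one of the variant.

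In this cascade, active RAS proteins recruit RAF kinases to the membrane, RAF phosphorylates MEK, and MEK phosphorylates ERK. ERK then acts on cytoplasmic kinases such as RSK and on transcription factors in the nucleus. Signal flow is set largely by phosphorylation and by scaffolds such as KSR1, and germline variants that raise it cause Noonan syndrome and related disorders, in which cardiac hypertrophy is frequent. The comparison of AdCre with AdGFP addresses whether the transcripts of the cascade itself changed with RIT1 M90I. RNA levels carry no information on phosphorylation, which was not measured in these samples.

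None of the 8 cascade transcripts passed the test between AdCre and AdGFP, with or without pairing of the samples by replicate number. Ksr1 was 28.8% higher and Araf differed by -13.5% in the AdCre mean, and these were the 2 members whose groups did not overlap as deposited. Rps6ka1 had the widest difference, from 3.05 ± 1.42 to 5.5 ± 1.34 FPKM (mean ± SD, n = 3 each), and its groups overlapped. The other 5 members differed by between -14.9% and 0.484% in the group means, all with overlapping groups.

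A gene was called at an adjusted p under 0.05 (limma, Benjamini-Hochberg adjustment over the 13794 genes). Without pairing, 0 of 8 members were called, against 0.00725% of all genes. At an unadjusted p under 0.05 there were again 0 of 8 members, against 10.2% of all genes. With the replicate number as a block, 0 of 8 were called (limma, 6.15% of all genes). At an unadjusted p under 0.05 the blocked fit gave 3 of 8, namely Araf, Ksr1 and Rps6ka1 (24.7% of all genes). Groups did not overlap for 2 of 8 members, against 15.4% of all genes, and 4 of 8 had the same sign in every pair, against 48.4% of all genes (2 of 8, Araf and Ksr1, against 50.4% after rescaling to TPM). By direction, the blocked calls were 2.64% of genes higher and 3.51% lower in AdCre, with 0 members in each. Those shares depend on the settings, since 42.9% of the blocked calls were higher as deposited and 61.5% after rescaling to TPM, and the blocked count fell from 848 to 1 without pair 3. Before adjustment, the blocked fit put 2 members higher (11.5% of genes) and 1 lower (13.3%) at a p under 0.05, and the fit without pairing gave 4.71% of genes higher and 5.45% lower. Non-overlapping groups were higher for 1 member (7.36% of genes) and lower for 1 (8.02%), and 3 of 8 had a log2 fold change above 0 (49.6% of genes). Over the 30 alternative analyses, the single call of a member was Ksr1 in the blocked fit of voom on recovered reads (limma adjusted p 0.0494). That fit called 1657 of 13123 genes, so 1 of 8 members is near the share over all genes.

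**Figure D1:**
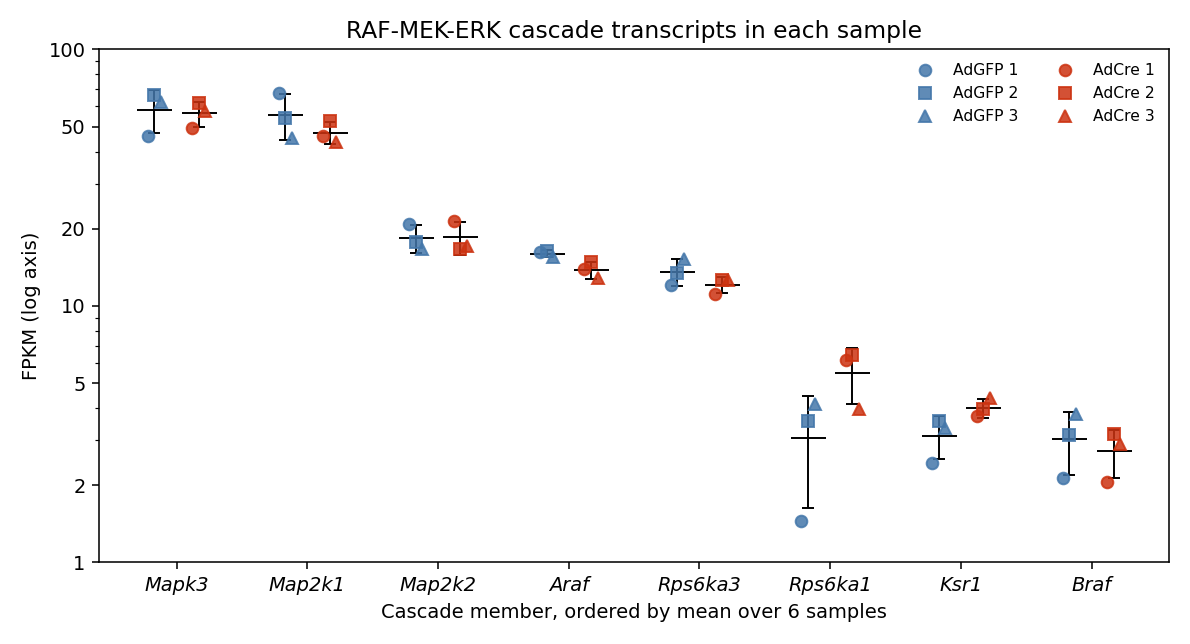
FPKM (log axis) of the 8 cascade members in each of the 6 samples, blue for AdGFP and red for AdCre, with the marker shape giving the replicate number and black bars the mean ± SD of each group (n = 3). Mapk3 and Map2k1 sit above 40 FPKM in every sample, Rps6ka1, Ksr1 and Braf below 7, and the colors separate for Araf and Ksr1.

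The transcripts spanned a wide range of levels. Averaged over the 6 samples on the FPKM scale, which is per length, Mapk3 came first at 57.3 ± 8.1 and Map2k1 next at 51.5 ± 8.99 FPKM (SD, n = 6). The Mapk3 level exceeded that of Map2k1 in 5 of 6 samples, and the 2 ranges overlapped. Map2k2 followed at 18.4 ± 2.21, Araf at 14.9 ± 1.38 and Rps6ka3 at 12.8 ± 1.41 FPKM, an order seen in 6 of 6 samples. The lowest members were Rps6ka1 (4.28 ± 1.82), Ksr1 (3.57 ± 0.656) and Braf (2.87 ± 0.665 FPKM), whose ranges overlapped. Rps6ka1 was above Ksr1 in 3 of 6 samples, so the order of those 2 was not resolved. Among the 13794 genes, Mapk3 lay at the 94.4th percentile of mean FPKM and Braf at the 31.9th.

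Annotated promoters (RefSeq, GRCm38.p6; 250 bases before and 50 after each start) were available for 6 of the 8 members, with 9 starts in all. Mapk3 and Rps6ka3 had none. Those printed, 5′ to 3′ on the strand of the gene, belong to Araf and Ksr1, whose groups did not overlap, to Rps6ka1, with the widest difference, and to Braf for comparison with its paralog. Only the upstream start of Rps6ka1 is printed, and its further annotated starts are left out. Capitals mark matches on either strand to the AP-1 motif (TGACTCA) or the cyclic AMP response element (CRE, TGACGTCA). The ETS motif CCGGAAG and the serum response element, bound by ERK-responsive factors, were also searched, and no motif overlapped another.
Araf, chrX:20848293-20848592, plus strand: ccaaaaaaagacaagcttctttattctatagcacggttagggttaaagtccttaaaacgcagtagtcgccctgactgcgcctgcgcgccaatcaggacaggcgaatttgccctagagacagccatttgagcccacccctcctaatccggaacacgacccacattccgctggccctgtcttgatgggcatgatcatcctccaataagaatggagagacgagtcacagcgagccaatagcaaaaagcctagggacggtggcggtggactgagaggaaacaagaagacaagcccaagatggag
Braf, chr6:39725414-39725713, minus strand: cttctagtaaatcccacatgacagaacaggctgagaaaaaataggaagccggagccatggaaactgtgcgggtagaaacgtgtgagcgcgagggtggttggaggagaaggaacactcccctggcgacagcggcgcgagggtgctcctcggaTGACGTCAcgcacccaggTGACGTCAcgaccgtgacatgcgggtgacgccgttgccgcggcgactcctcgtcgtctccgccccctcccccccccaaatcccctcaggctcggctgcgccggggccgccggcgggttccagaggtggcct
Ksr1, upstream start, chr11:79146424-79146723, minus strand: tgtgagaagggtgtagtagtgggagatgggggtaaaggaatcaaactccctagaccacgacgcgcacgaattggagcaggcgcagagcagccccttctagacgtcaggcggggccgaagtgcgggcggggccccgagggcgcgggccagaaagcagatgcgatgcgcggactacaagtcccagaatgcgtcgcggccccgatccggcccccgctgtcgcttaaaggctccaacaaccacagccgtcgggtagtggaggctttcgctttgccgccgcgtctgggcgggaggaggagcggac
Ksr1, internal start, chr11:79059787-79060086, minus strand: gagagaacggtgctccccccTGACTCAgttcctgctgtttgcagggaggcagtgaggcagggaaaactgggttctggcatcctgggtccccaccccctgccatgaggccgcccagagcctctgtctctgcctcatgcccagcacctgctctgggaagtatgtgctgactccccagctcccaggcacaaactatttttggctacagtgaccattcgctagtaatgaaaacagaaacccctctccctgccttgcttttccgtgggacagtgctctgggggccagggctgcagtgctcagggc
Rps6ka1, upstream start, chr4:133887748-133888047, minus strand: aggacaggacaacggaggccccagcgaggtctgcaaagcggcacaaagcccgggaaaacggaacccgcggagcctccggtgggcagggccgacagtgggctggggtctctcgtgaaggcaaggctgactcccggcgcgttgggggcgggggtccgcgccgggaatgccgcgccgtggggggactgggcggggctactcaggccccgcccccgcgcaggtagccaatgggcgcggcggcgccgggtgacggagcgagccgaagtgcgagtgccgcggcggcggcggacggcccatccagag

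Of the 9 member promoters, 0 held the ETS motif and 0 the serum response element, while 1 held the AP-1 motif and 1 the CRE. The shares over all 32851 promoters of this length were 8.86%, 1.63%, 5.2% and 1.79%, in the same order. The Braf promoter held the CRE at 2 places, and the AP-1 match was at the internal start of Ksr1. These are matches of letters in a window and not evidence of binding. The 2 Ksr1 windows differed in composition, with 31 CpG dinucleotides upstream and 4 at the internal start. Gene-level FPKM pools the starts of a gene, so the use of each start was not measured.

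The RAF kinases, which phosphorylate MEK, were represented by Araf and Braf. Araf (ENSMUSG00000001127, chromosome X, 20797814 to 20860519, plus strand; coordinates here and below from GENCODE M21, GRCm38) had 16.2, 16.4 and 15.5 FPKM in AdGFP 1 to 3 and 13.9, 14.8 and 12.8 FPKM in AdCre 1 to 3. Every AdCre sample lay below every AdGFP sample, with 2313 to 2917 reads behind each value. Araf differed by -0.21 ± 0.11 between the groups (log2 fold change ± SE; limma adjusted p 0.593; exact two-sided permutation p 0.1, the smallest that 3 against 3 allow). Its 95% interval ran from -0.47 to 0.05. With the block the interval ran from -0.40 to -0.02, and the limma adjusted p was 0.168. Araf was lower in all 3 pairs, by -0.21, -0.14 and -0.27 on the log2 scale. After rescaling to TPM its log2 fold change was -0.12, and the groups overlapped (47.5, 54.6 and 55.6 TPM in AdGFP, 45.5, 52.1 and 47.2 in AdCre). They stayed apart after median centring and as recovered reads scaled to their totals, and those of Ksr1 did so under all 3 of these scalings.

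Braf (ENSMUSG00000002413, chromosome 6, 39603237 to 39725463, minus strand) encodes the RAF isoform with the highest basal kinase activity. Its levels were 2.14, 3.13 and 3.8 FPKM in AdGFP and 2.06, 3.17 and 2.89 FPKM in AdCre. The lowest value of either group came from replicate 1, and the groups overlapped. Braf differed by -0.14 ± 0.26 between the groups (log2 ± SE; 95% interval -0.74 to 0.47, limma adjusted p 0.922). Its sign turned, to 0.04, without AdCre replicate 1 or without AdGFP replicate 3, and leaving out AdCre 2, AdGFP 1 or AdGFP 2 gave -0.26, -0.36 and -0.09. Araf exceeded Braf in every sample, by a ratio of FPKM between 4.07 and 7.56 in AdGFP and between 4.41 and 6.75 in AdCre.

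Ksr1 (ENSMUSG00000018334, chromosome 11, 79013440 to 79146407, minus strand) encodes kinase suppressor of Ras 1, a RAF relative that holds RAF, MEK and ERK together. Its levels were 2.44, 3.57 and 3.34 FPKM in AdGFP and 3.71, 3.96 and 4.38 FPKM in AdCre. All 3 AdCre samples lay above all 3 AdGFP samples, although AdCre 1 exceeded AdGFP 2 by little. Ksr1 differed by 0.37 ± 0.18 between the groups (log2 ± SE; 95% interval -0.05 to 0.79, limma adjusted p 0.549, exact permutation p 0.1).

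Within pairs, Ksr1 was higher in AdCre by 0.58, 0.15 and 0.38 on the log2 scale. The blocked interval ran from 0.06 to 0.68 (limma adjusted p 0.142). The call was gained in the blocked fit of voom on recovered reads (log2 fold change 0.44, limma adjusted p 0.0494), which called 1657 of 13123 genes. AdGFP 1 carried part of the difference, which was 0.21 on the log2 scale without that sample. Between 428 and 861 reads stood behind each value, and exons of Gm11201 on the other strand cover 2.62% of the exon bases of Ksr1.

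The MEK kinases are the only known activators of ERK. Map2k1 (ENSMUSG00000004936, chromosome 9, 64185770 to 64253631, minus strand) had 67.7, 54.2 and 45.1 FPKM in AdGFP and 46.0, 52.6 and 43.6 FPKM in AdCre. AdGFP 1 stood highest and the remaining 5 samples lay within 43.6 to 54.2 FPKM. Map2k1 differed by -0.22 ± 0.17 between the groups (log2 ± SE; 95% interval -0.63 to 0.19, limma adjusted p 0.762). The pair differences were -0.56, -0.04 and -0.05, so pair 1 made most of the difference, and without it the blocked log2 fold change was -0.05. Leaving out AdGFP 1 alone gave -0.07, and leaving out AdGFP 3 gave -0.36.

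Map2k2 (ENSMUSG00000035027, chromosome 10, 81105915 to 81133975, plus strand) had 20.9, 17.7 and 16.6 FPKM in AdGFP and 21.5, 16.7 and 17.2 FPKM in AdCre. The highest value of either group was that of replicate 1. Its log2 fold change was 0.00, and the blocked 95% interval, from -0.18 to 0.19, was among the narrowest of the 8 members (limma adjusted p 0.982 with the block and 0.998 without). Map2k1 exceeded Map2k2 in every sample, with FPKM ratios for AdGFP 1 to 3 of 3.24, 3.07 and 2.72 and for AdCre 1 to 3 of 2.13, 3.15 and 2.54. The ratio was lowest in AdCre 1, and the groups overlapped. Of the 50-base words in Map2k1 transcripts, 0.21% also occur in other genes.

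Mapk3 (ENSMUSG00000063065, chromosome 7, 126759601 to 126765819, plus strand), which encodes the terminal kinase ERK1, had 45.8, 66.4 and 62.6 FPKM in AdGFP and 49.3, 61.7 and 57.8 FPKM in AdCre. Replicate 1 was again the lowest in both groups, and the AdCre values fell inside the AdGFP range. Mapk3 differed by -0.04 ± 0.18 between the groups (log2 ± SE; 95% interval -0.46 to 0.38, limma adjusted p 0.977). With the block the interval narrowed to -0.24 to 0.16. The sign depended on the scaling: the log2 fold change was 0.05 after rescaling to TPM and 0.01 after quantile normalization.

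**Figure D2:**
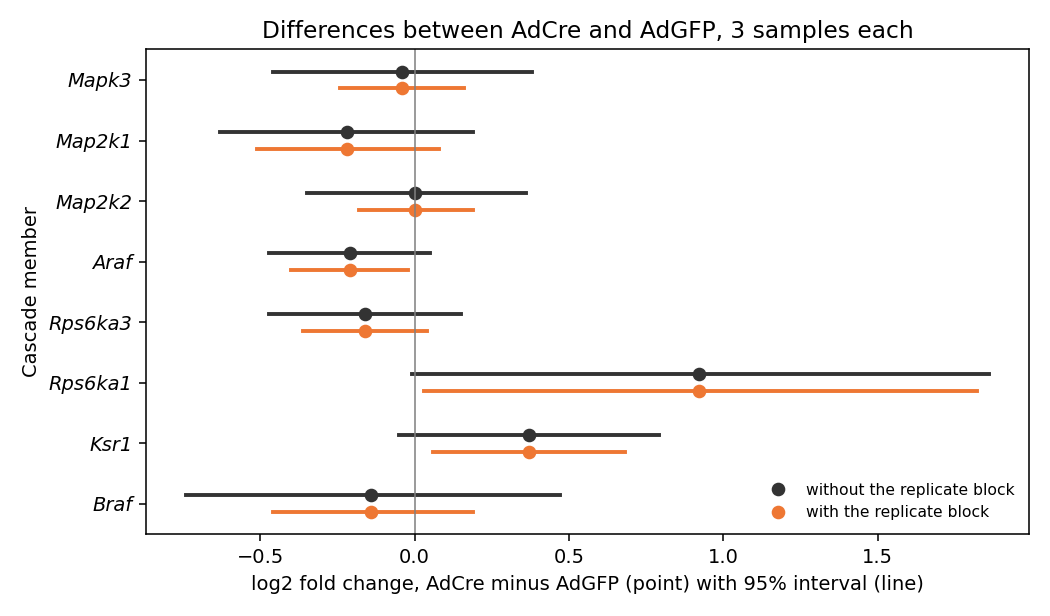
Log2 fold change of each cascade member (horizontal axis, AdCre minus AdGFP; points) with its 95% interval (lines) from limma without (grey) and with (orange) the replicate block, 3 samples per group. Without the block all 8 intervals include 0, and with it those of Araf, Rps6ka1 and Ksr1 lie to one side of 0, before any adjustment for the number of genes.

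RSK kinases are phosphorylated by ERK and act on ribosomal, cytoskeletal and transcriptional substrates. Rps6ka1 (ENSMUSG00000003644, chromosome 4, 133847290 to 133887797, minus strand) had 1.45, 3.55 and 4.15 FPKM in AdGFP and 6.13, 6.41 and 3.96 FPKM in AdCre. Its values were high in AdCre 1 and 2 and lowest in AdGFP 1, whereas AdCre 3 lay below AdGFP 3 (18.4 for both as recovered reads scaled to their totals, where the groups just separated). The reads behind these values were 153, 383 and 436 in AdGFP and 836, 705 and 467 in AdCre.

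Rps6ka1 differed by 0.92 ± 0.40 between the groups (log2 ± SE; 95% interval -0.01 to 1.86, limma adjusted p 0.503, exact permutation p 0.2). With the block the limma adjusted p was 0.193. The pair differences were 2.0, 0.84 and -0.07 on the log2 scale, so pairs 1 and 2 moved together and pair 3 did not. The log2 fold change was 0.48 without AdGFP 1 and 1.2 without AdGFP 3. In the blocked fit it was 0.38 without pair 1 and 1.42 without pair 3. Exons of Gm12977 on the other strand cover 5.8% of the exon bases of Rps6ka1. Whether counting used strand is not given in the sources used here.

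Rps6ka3 (ENSMUSG00000031309, chromosome X, 159210307 to 159368244, plus strand), the RSK2 gene mutated in Coffin-Lowry syndrome, had 12.1, 13.4 and 15.2 FPKM in AdGFP and 11.1, 12.6 and 12.6 FPKM in AdCre. It was lower in AdCre in all 3 pairs (-0.12, -0.09 and -0.27 on the log2 scale) as deposited, and the groups overlapped. After rescaling to TPM pair 1 turned (35.5 TPM in AdGFP and 36.2 in AdCre). Rps6ka3 differed by -0.16 ± 0.13 between the groups (log2 ± SE; 95% interval -0.47 to 0.15, limma adjusted p 0.766). The log2 fold change was -0.08 without AdGFP 3, -0.10 without AdCre 1 and -0.07 with TPM. The ratio of Rps6ka3 to Rps6ka1 FPKM was 8.3, 3.78 and 3.67 in AdGFP and 1.81, 1.96 and 3.19 in AdCre, without overlap. This ratio was formed after the values had been seen and was not tested.

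**Figure D3:**
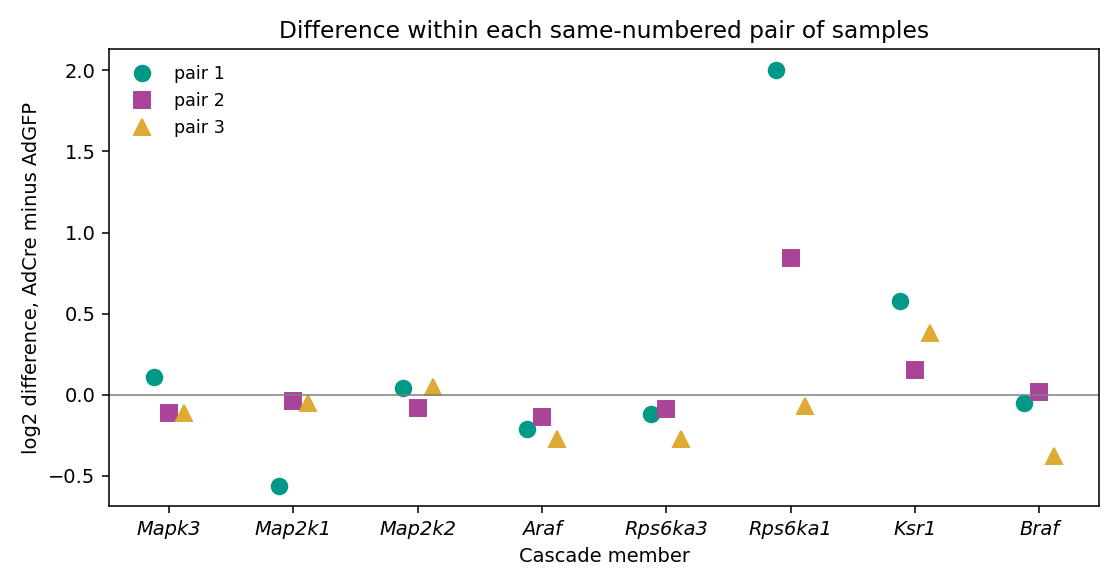
Log2 difference (vertical axis, AdCre minus AdGFP) within each pair of samples that share a replicate number, for the 8 cascade members, with 1 marker per pair. Rps6ka1 ranges from -0.07 in pair 3 to 2.0 in pair 1, Map2k1 stands apart in pair 1 at -0.56, and Map2k2 stays between -0.08 and 0.05.

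Several members varied mainly with the replicate number. On the log2 scale, the share of the variation over the 6 samples that lay between replicate numbers was 96.0% for Map2k2, 92.0% for Mapk3 and 86.6% for Braf. The share between AdGFP and AdCre for the same genes was 0.0202%, 0.985% and 5.05%. The order was the other way for Araf (71.6% between groups, 23.7% between replicate numbers), Ksr1 (52.1% and 35.8%) and Rps6ka1 (45.9% and 15.4%). Replicate number has 2 degrees of freedom and group has 1, so the shares are a description and were not tested against each other. The medians over all genes were 59.2% between replicate numbers and 16.0% between groups.

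Profiles were also compared with those of 75 other genes, namely the remaining members and the tested genes of the pathway lists described next. Likeness was the root mean square difference of mean-centred log2 values over the 6 samples. The nearest gene was Ywhah for Map2k2 (0.052), Ppp1cb for Araf (0.072), Shoc2 for Rps6ka3 (0.074), Wdr83 for Map2k1 (0.079), Map3k2 for Ksr1 (0.108), Mapk9 for Mapk3 (0.133) and Mapk3 for Braf (0.154). Rps6ka1 lay furthest from its nearest gene, Ksr1, at 0.494. This measure grows with a gene's own spread. The median distance to the 75 genes was 0.718 for Rps6ka1 and ran from 0.222 (Map2k2) to 0.403 (Braf) for the other members.

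Other genes of the pathway were read from the same fits. In a list of 9 other cascade kinases, 7 were tested. Without the block, limma called 0 of the 7 (0.00725% of all genes) and put 1 at an unadjusted p under 0.05 (10.2% of all genes). With the block 1 rose (2.64% of all genes). That gene was Rps6ka2 (RSK3, a further ERK-activated S6 kinase), at 3.95, 4.23 and 4.82 FPKM in AdGFP and 6.41, 5.99 and 7.25 FPKM in AdCre. All 3 AdCre samples lay above all AdGFP samples. Its log2 difference was 0.58 ± 0.14 (SE; limma adjusted p 0.261 without the block and 0.0306 with it). The blocked call was lost in 5 of 13 alternatives, with adjusted p-values of 0.0807 without a trend, 0.0928 without a filter, and 0.0516, 0.102 and 0.131 without pair 1, 2 or 3 (limma). Of the 50-base words in its transcripts, 19.36% occur in other genes, and how reads from them were counted is not given in the sources used here.

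Of 28 regulators of the cascade, among them 14-3-3 proteins, RAF chaperones and MEK scaffolds, 26 were tested. Without the block, limma called 0 of the 26 and put 2 at an unadjusted p under 0.05 (10.2% of all genes). With the block 1 fell, a share near the 3.51% of all genes. Lamtor1, a subunit of the late endosomal Ragulator complex that anchors a MEK scaffold, had 43.3, 32.9 and 31.0 FPKM in AdGFP and 32.0, 24.3 and 25.2 FPKM in AdCre. It was lower in each pair (-0.43, -0.43 and -0.30 on the log2 scale), and the unpaired groups overlapped. Its log2 difference was -0.39 (limma adjusted p 0.519 without the block and 0.0442 with it), and exons of Lrrc51 on the other strand cover 18.66% of its exon bases. Without the block, the log2 difference was -0.24 without AdGFP 1 and -0.51 without AdCre 1. The blocked call was lost in 7 of 13 alternatives, among them TPM (limma adjusted p 0.0754) and leaving out pair 1, 2 or 3 (0.0862, 0.178 and 0.13).

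A list of 26 parallel kinases covered the JNK, p38 and ERK5 cascades and the atypical MAPK genes Mapk4 and Mapk6. Of these, 25 were tested and 0 were called by limma in either fit. At an unadjusted limma p under 0.05 there were 2 without the block (10.2% of all genes) and 5 with it (24.7% of all genes). The smallest p-values without the block were those of Mapk11 (p38β; log2 fold change 0.77, limma adjusted p 0.321), Mapkapk3 (a p38 substrate kinase; 0.45, 0.417) and Map2k5 (the ERK5 activator MEK5; -0.24, 0.516). Their blocked adjusted p-values were 0.0894, 0.0746 and 0.158. In the blocked fits Mapk11 was called without pair 1 (limma adjusted p 0.0239) and with voom (0.035), and Mapkapk3 with TPM (0.0423) and voom (0.0173). Groups did not overlap for 4 of the 25, these 3 among them, a share near the 15.4% of all genes.

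Downstream transcripts gave a further reference. Of 10 genes commonly used as a readout of MAPK output, all were tested, 0 were called without the block (4 at an unadjusted limma p under 0.05, against 10.2% of all genes) and 3 rose with it (2.64% of all genes). The D-type cyclin gene Ccnd1 had a log2 fold change of 1.15, the ETS factor gene Etv4 1.32 and the phosphatase gene Dusp4 0.79 (limma adjusted p with the block 0.00969, 0.0145 and 0.037). All 3 calls were lost in the blocked fit without a trend (limma adjusted p 0.0582, 0.0628 and 0.106), without a filter (0.0509, 0.0664 and 0.124) and without pair 3 (0.062, 0.0765 and 0.131), and that of Dusp4 also without pair 2 (0.132). In the fit without the block, Dusp4 ranged from 0.51 without AdGFP 3 to 1.13 without AdGFP 1. The log2 fold change was below 0 for 3 of the 10, namely Epha4 (-0.44), Spry2 (-0.37) and Phlda1 (-0.13), none of them called by limma (blocked adjusted p 0.0966, 0.0632 and 0.715). Exons of LTO1 on the other strand cover 23.36% of the exon bases of Ccnd1. The study had singled out Ccnd1 and Etv4 from these samples, so they are not independent of the list.

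The median log2 fold change was -0.088 over the 8 members, 0.28 over the output list and -0.0022 over all genes tested. The median size of change was 0.19, 0.36 and 0.17. For the other cascade kinases, the regulators and the parallel kinases the medians were 0.015, 0.047 and 0.10.

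**Figure D4:**
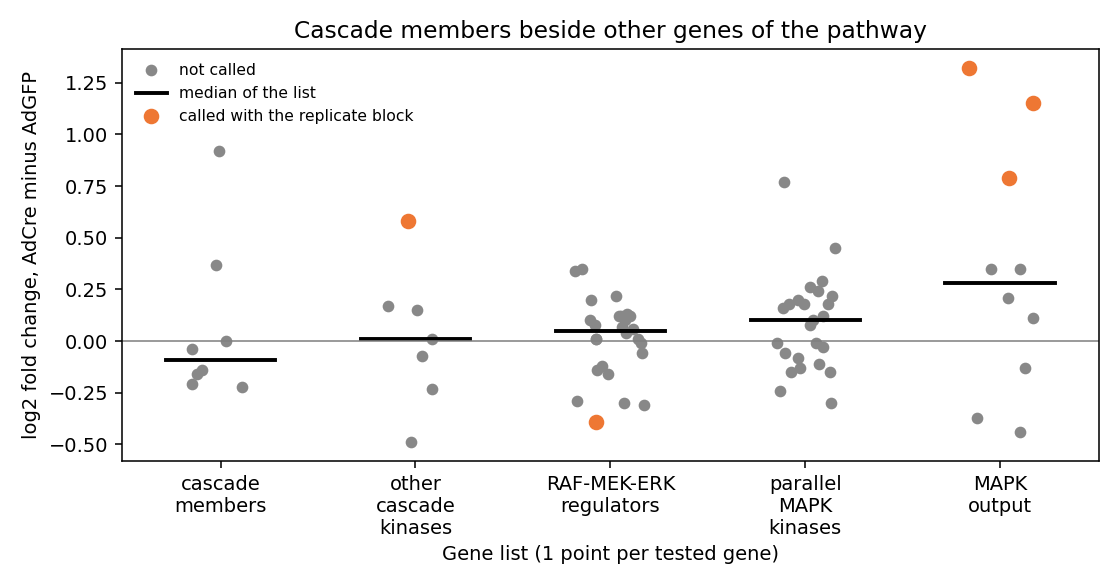
Log2 fold change (vertical axis, AdCre minus AdGFP) of each tested gene in the 8 cascade members and 4 further lists, with black lines at the list medians and orange points for genes called by limma with the replicate block. No cascade member is orange, and 3 of the 10 MAPK output genes are.

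Library depth and cell type markers were read from the same table. Reads worked back from FPKM numbered about 23736200 to 24822200 in AdGFP and 24366400 to 30344200 in AdCre, over genes whose values came out as whole reads. Markers of cardiomyocytes were abundant, with summed levels of 4700 to 8200 FPKM in AdGFP and 2490 to 4290 FPKM in AdCre, and 10 of 10 had a log2 fold change below 0 (6 called with the block, against 3.51% of all genes). Fibroblast markers were also high (2670 to 4730 against 2390 to 3430 FPKM; 7 of 9 below 0; 3 called lower and 1 higher with the block), so the cultures were mixed. Endothelial markers (88.3 to 130.0 against 130.0 to 185 FPKM; 7 of 7 above 0, 4 called with the block) and macrophage markers (41.4 to 226 against 74.6 to 278; 5 of 5 tested above 0, 1 called with the block) leaned the other way, against 2.64% of all genes called higher. Without the block 0 markers of any list were called by limma. At an unadjusted limma p under 0.05 there were 6 of 10 cardiomyocyte, 3 of 7 endothelial, 1 of 9 fibroblast and 1 of 5 mesothelial markers. The share of all genes at that threshold was 10.2%. The blocked calls over all genes numbered 0 without a trend and 1 without pair 3.

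Mural markers (111 to 116 against 111 to 127 FPKM; 4 of 5 above 0) and mesothelial markers (123 to 223 against 189 to 248; 2 of 5 above 0, 1 called higher with the block) were also present, with 0 mural markers called. Of the red blood cell markers 0 of 4 were tested, at no more than 0.357 FPKM in sum, and Hba-a2 and Hbb-bt were listed at 0 in every sample. In bulk samples, fewer cells of a type cannot be told apart from less RNA per cell. The macrophage sum was lowest in AdGFP 1 and AdCre 1 (41.4 and 74.6 FPKM), while Rps6ka1 was lowest in AdGFP 1 and high in AdCre 1. The part of these cell type differences in the values of Araf, Ksr1 and Rps6ka1 was not tested.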

How the data were processed

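Poly-A RNA from 6 cultures was sequenced, 3 per group. The authors deposited FPKM, 1 column per sample. The submitters' processing notes name fastp, STAR 2.5, HTSeq 0.6.1 and mm10, and the annotation and use of strand are not given in the sources used here. Of 54532 gene IDs, 54495 matched GENCODE M21 (GRCm38), which gave symbols, exon lengths and coordinates. FPKM times exon length gave whole reads in every sample (tolerance 0.02) for 96.8% of the genes with a value, and all 8 members were among them. Values that rest on few reads are less precise.

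Genes averaging 0.5 FPKM or more over the 6 samples (13794) were transformed to log2(FPKM + 0.1) and fitted with limma 3.58.1 (R 4.3.3; lmFit, eBayes with a trend) and Benjamini-Hochberg adjustment, and this offset shrinks the fold changes of weakly expressed genes. Intervals are 95% and unadjusted. The labels number replicates 1 to 3 as biological replicates without saying what a number marks, so p-values measure the spread between these samples. Deviations from group means correlated across genes at 0.568, 0.268 and 0.506 for same-numbered samples (-0.497 to 0.036 otherwise). All 3 exceeded 0.1, so same-numbered samples were treated as pairs, a decision that rests on the values alone, and the block was fitted beside the main design. In a simulation of 13794 genes, 200 of them shifted 2-fold, limma without pair effects called 95.5% of them. With pair effects simulated, 91.0% were called once pairs were blocked and 0 otherwise. The simulation capped the residual spread of every gene and drew pair effects with the same spread for all genes. Its shares therefore do not apply to noisier genes such as Rps6ka1 (SE 0.40 on the log2 scale without the block).

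The members and gene lists were chosen with earlier results of these data known. All members were named, and from each pathway list the called genes (at most 5 per fit by smallest p) or, where none was called, the 3 smallest p-values. Further paralogs of these kinase families are counted in the lists and not described individually. Alternatives covered the pseudocount (1 or 0.01), the filter (none, or a 1 FPKM mean), restriction to protein-coding genes, TPM, median centring, quantile normalization, no trend, the replicate block, voom on recovered reads and leaving out each sample. Most of these applied to the blocked fit, and leaving out each pair, were added after the data were seen. Sequence shared with other genes was counted in 50-base transcript words. Python 3.11.15, numpy 2.4.6 and pandas 2.3.3 were used.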

Additional observations from a re-analysis of the deposited data

How the results depend on the processing

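The count of called cascade members was 0 under 29 of 30 alternatives and 1 under the other, the blocked fit of voom on recovered reads. That fit called 1657 of 13123 genes. The count of genes called was 1 in the design used here. Without the block it was 4 without a trend, 3 with a pseudocount of 1, 0 without a filter on low values (2168 at an unadjusted limma p under 0.05) and 0 with voom (1380), and it ran from 0 to 2 when single samples were left out. With the replicate block it was 848, and with the pairing kept it was 922 at a mean of at least 1 FPKM, 1167 with protein-coding genes, 782 and 784 with pseudocounts of 0.01 and 1, 778 with median centring, 762 with quantile normalization, 875 with TPM and 1657 with voom. It was 17 in the blocked fit without a filter, 0 without a trend (3122 at an unadjusted limma p under 0.05), 811 without pair 1, 152 without pair 2 and 1 without pair 3. The share of blocked calls that were higher in AdCre was 42.9% as deposited, 61.5% with TPM and 57.8% with voom. Of 240 log2 fold changes of members under the alternatives, 223 kept direction and side of the threshold. The sign turned in 16. Over the samples left out singly, the range was -0.36 to 0.04 for Braf, -0.11 to 0.10 for Map2k2 and -0.20 to 0.07 for Mapk3. Braf was at 0.04 without AdCre replicate 1 and without AdGFP replicate 3. Map2k2 was at -0.11 without AdCre replicate 1, -0.02 without AdGFP replicate 2, -0.07 without AdGFP replicate 3, and -0.02 in the blocked fits without pair 1 and without pair 3. Mapk3 was at 0.05 without AdCre replicate 1, 0.07 without AdGFP replicate 2, 0.02 without AdGFP replicate 3, 0.05 with TPM (with or without the block), 0.01 with quantile normalization (likewise), and 0.03 with voom (0.02 blocked). The causes were not tested. Groups did not overlap for 2 members as deposited (15.4% of all genes), 1 with TPM (15.3%), 2 with median centring (15.3%) and 3 as recovered reads scaled to their totals (16.0%), and the sign was the same in all pairs for 4, 2, 4 and 4, comparisons chosen after seeing the data. Of the members, depth limits Rps6ka1 most, with 153 reads in AdGFP replicate 1.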
